A study of Mus musculus with 35 samples.

Results

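The carbonic anhydrase cluster of mouse chromosome 3 was examined for the histone marks H3K27ac, H3K4me1 and H3K4me3 in bone marrow cells that carry leukaemia mutations and in wild-type cells. It holds the genes Car13, Car1, Car3 and Car2, which are 4 of the 21883 protein-coding genes annotated. The cluster was taken as the spans of the 4 genes, the space between them and 10 kb on each side, a stretch of 279 kb (mm10, chromosome 3, 14631727-14910770). In stem and progenitor cells H3K27ac covered 22.0 and 17.9 kb of that stretch in Npm1c mutants and 0.822 and 0.52 kb in double mutants, against 13.1 and 11.98 kb in wild-type cells. Divided by each library's total H3K27ac length, the Npm1c difference from wild type was 0.369 kb, and undivided it was 7.40 kb.

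Carbonic anhydrases turn carbon dioxide and water into bicarbonate and a proton, and back again. Red cells use them to carry carbon dioxide as bicarbonate. Car2 encodes a fast cytosolic enzyme of red cells, osteoclasts and kidney. Car1 encodes a slower enzyme that is abundant in mature red cells and in colon and is transcribed from separate erythroid and colonic promoters. Car3 encodes an enzyme of low activity found in muscle, fat and liver, and Car13 a cytosolic enzyme found in several tissues. H3K27ac marks active promoters and enhancers, H3K4me1 marks enhancers and the flanks of promoters, and H3K4me3 marks the starts of active genes.

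Lineage-negative hematopoietic stem and progenitor cells (HSPC) came from C57BL/6 mice of 4 genotypes: Npm1c, Flt3-ITD, DM and WT. Npm1c is the mutant nucleophosmin of acute myeloid leukaemia that sits in the cytoplasm, and Flt3-ITD is an internal tandem duplication in the receptor kinase gene Flt3. The labels do not spell out DM, which is taken to carry both mutations. The last group was neutrophils of WT mice. Bone marrow was flushed from leg bones, red cells were lysed, and cells were purified with a lineage depletion kit or a neutrophil isolation kit. Each group had 2 libraries per mark, described as biological replicates, which made 30 libraries with a peak list, and 5 inputs were not analysed here. No source used here gives the age, the sex, the exact alleles or any driver of the mutations. All 4 comparisons below are against the same 2 WT HSPC libraries of a mark, so they are not independent of each other.

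The deposited lists held peak positions without a score or a count, so depth per library was unknown, and the measure used is the length of sequence under peaks. A list held from 21709 to 30150 peaks for H3K27ac, from 102927 to 131205 for H3K4me1 and from 30310 to 39320 for H3K4me3. H3K27ac peaks had a width of their own, with medians from 482 to 566 bp, whereas those of H3K4me1 and H3K4me3 were 1000 bp wide, so coverage of the H3K4 marks moved in steps of about 1 kb. Total H3K27ac coverage in Npm1c HSPC was 1.55 times that of WT HSPC, and the other ratios of totals, over all groups and marks, lay between 0.843 and 1.15. The DM libraries covered 20.3 and 13.5 Mb with H3K27ac, either side of the 15.2 and 15.3 Mb of the WT HSPC libraries.

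From low to high coordinate the order is Car13 (14641727-14663002, 21.3 kb), Car1 (14766214-14808365, 42.2 kb), Car3 (14863538-14872381, 8.84 kb) and Car2 (14886269-14900770, 14.5 kb). The spaces between them are 103 kb, 55.2 kb and 13.9 kb long. As background, Car1 is read towards lower coordinates and the other 3 genes towards higher ones, so the start of Car1 is the high end of its span. The windows of Car3 and Car2, each a span with 10 kb on both sides, share 6.11 kb, so part of their coverage is the same peaks. These genes were singled out because of H3K27ac differences at Car2 and Car1 and an H3K4me1 difference at Car1, so values of those 2 marks are given as a description, without a test. H3K4me3 was tested, though not independently of that choice. Of the 7.17 kb it covered in both WT HSPC libraries, 4.40 kb lay under H3K27ac in both.

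**Figure D1:**
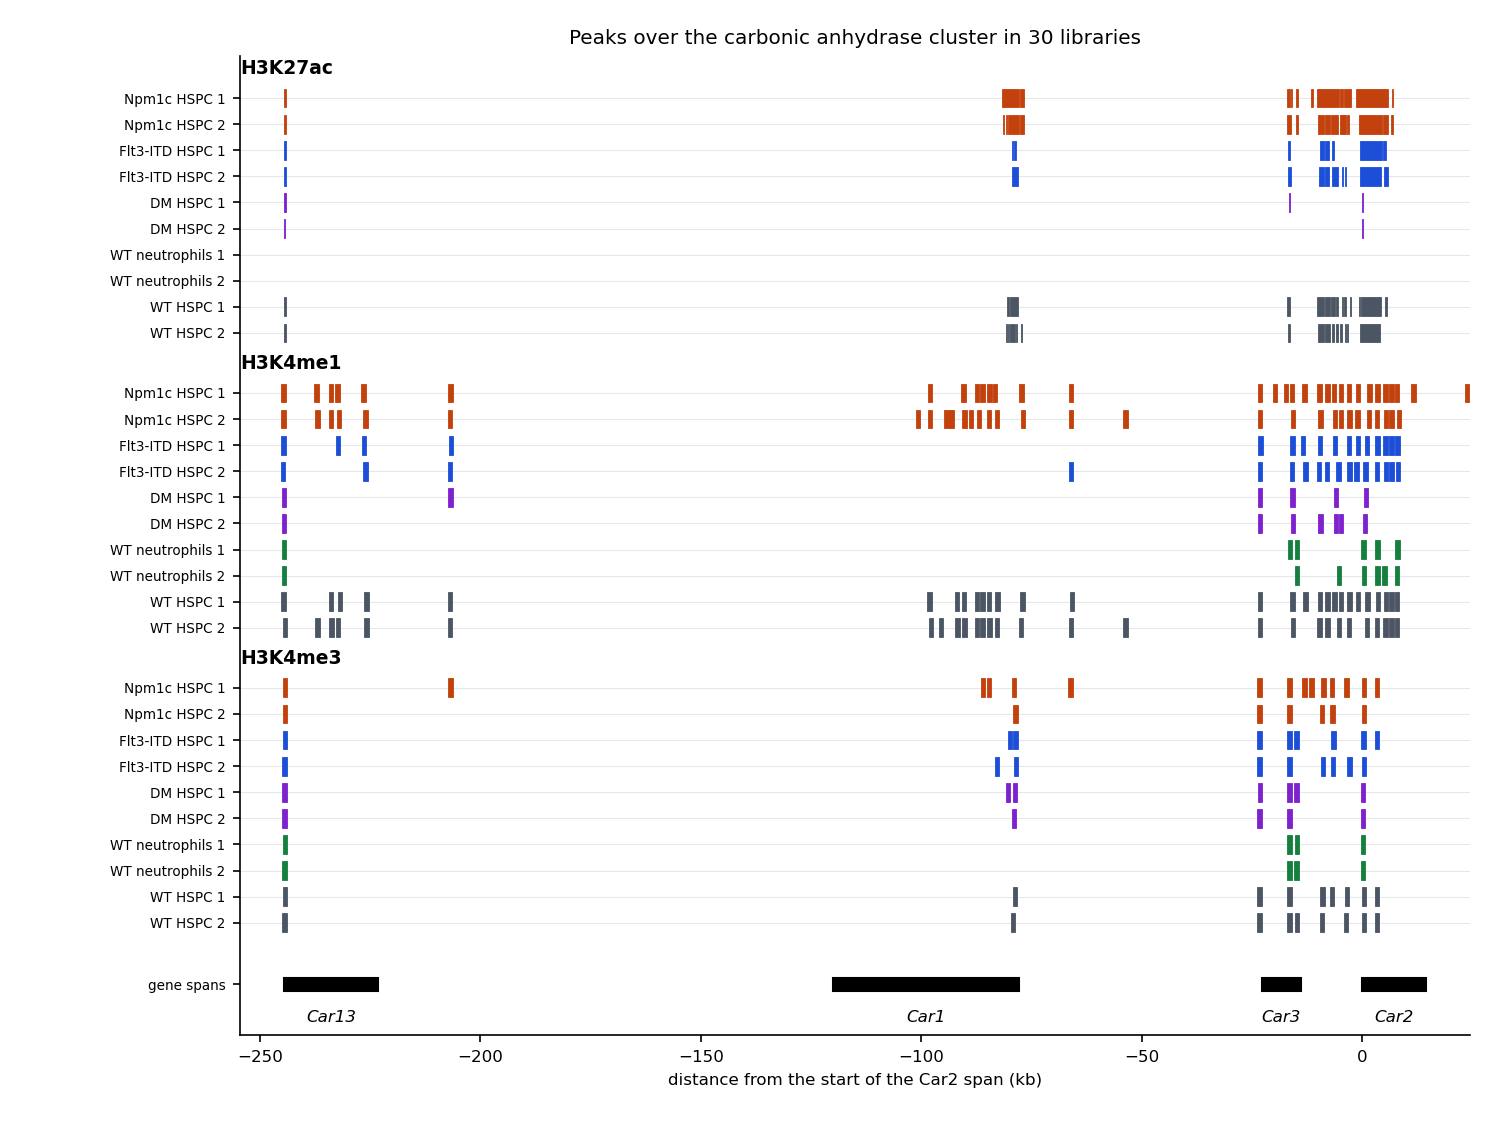
Peaks of each library (rows, grouped by mark) over the cluster, with the distance from the start of the Car2 span in kb on the horizontal axis and the gene spans as black bars. H3K27ac peaks lie at the Car13 start, the Car1 start and from Car3 to Car2 in Npm1c, Flt3-ITD and WT HSPC, number 3 and 2 in the DM libraries and are missing in both neutrophil libraries.

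At Car2 the H3K27ac windows held 14.5 and 12.1 kb in Npm1c HSPC, 7.30 and 9.45 kb in Flt3-ITD HSPC, 0.272 and 0.257 kb in DM HSPC, 0 and 0 kb in neutrophils, and 9.81 and 8.85 kb in WT HSPC. Both Npm1c libraries lay above both WT libraries, both DM libraries and both neutrophil libraries lay below them, and the Flt3-ITD libraries overlapped with them. The Npm1c mean was 1.43 times the WT HSPC mean, below the ratio of 1.55 for total H3K27ac coverage. The DM mean was 2.84% of the WT HSPC mean. In DM HSPC each library had a single H3K27ac peak there, at the Car2 start, 272 and 257 bp wide. The widest peak over that start was 6786 and 4853 bp in Npm1c HSPC, 4529 and 4450 bp in Flt3-ITD HSPC, and 4724 and 4384 bp in WT HSPC. A broad acetylated block over the first part of Car2 was thus present in 6 libraries, and the DM libraries had a short peak at the start alone.

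Between Car3 and Car2, the 13.9 kb of intergenic sequence carried 8.93 and 6.21 kb of H3K27ac in Npm1c HSPC, 2.34 and 4.28 kb in Flt3-ITD HSPC, 0.058 and 0.058 kb in DM HSPC, none in neutrophils, and 5.17 and 4.94 kb in WT HSPC. On average 54.5% of this sequence was acetylated in Npm1c HSPC and 36.4% in WT HSPC. After merging the peaks of all 10 libraries, the larger of its regions (14876035-14881054) held H3K27ac peaks in all 6 Npm1c, Flt3-ITD and WT HSPC libraries. The next one (14881216-14883756) held peaks in 5 of these 6, without Flt3-ITD replicate 1. Neither had a peak in a DM or a neutrophil library. The DM remnant of 0.058 kb is the edge of the short peak at the Car2 start.

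In unscaled length Flt3-ITD HSPC split this stretch. Inside the Car2 span H3K27ac covered 4.96 and 5.17 kb in Flt3-ITD HSPC, against 4.77 and 3.99 kb in WT HSPC, so both Flt3-ITD libraries were higher. The span mean was 1.16 times that of WT HSPC, near the ratio of 1.15 for total H3K27ac coverage. In the intergenic sequence just before Car2 both Flt3-ITD libraries were lower than both WT HSPC libraries, by the values above. Those differences were not tested.

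**Figure D2:**
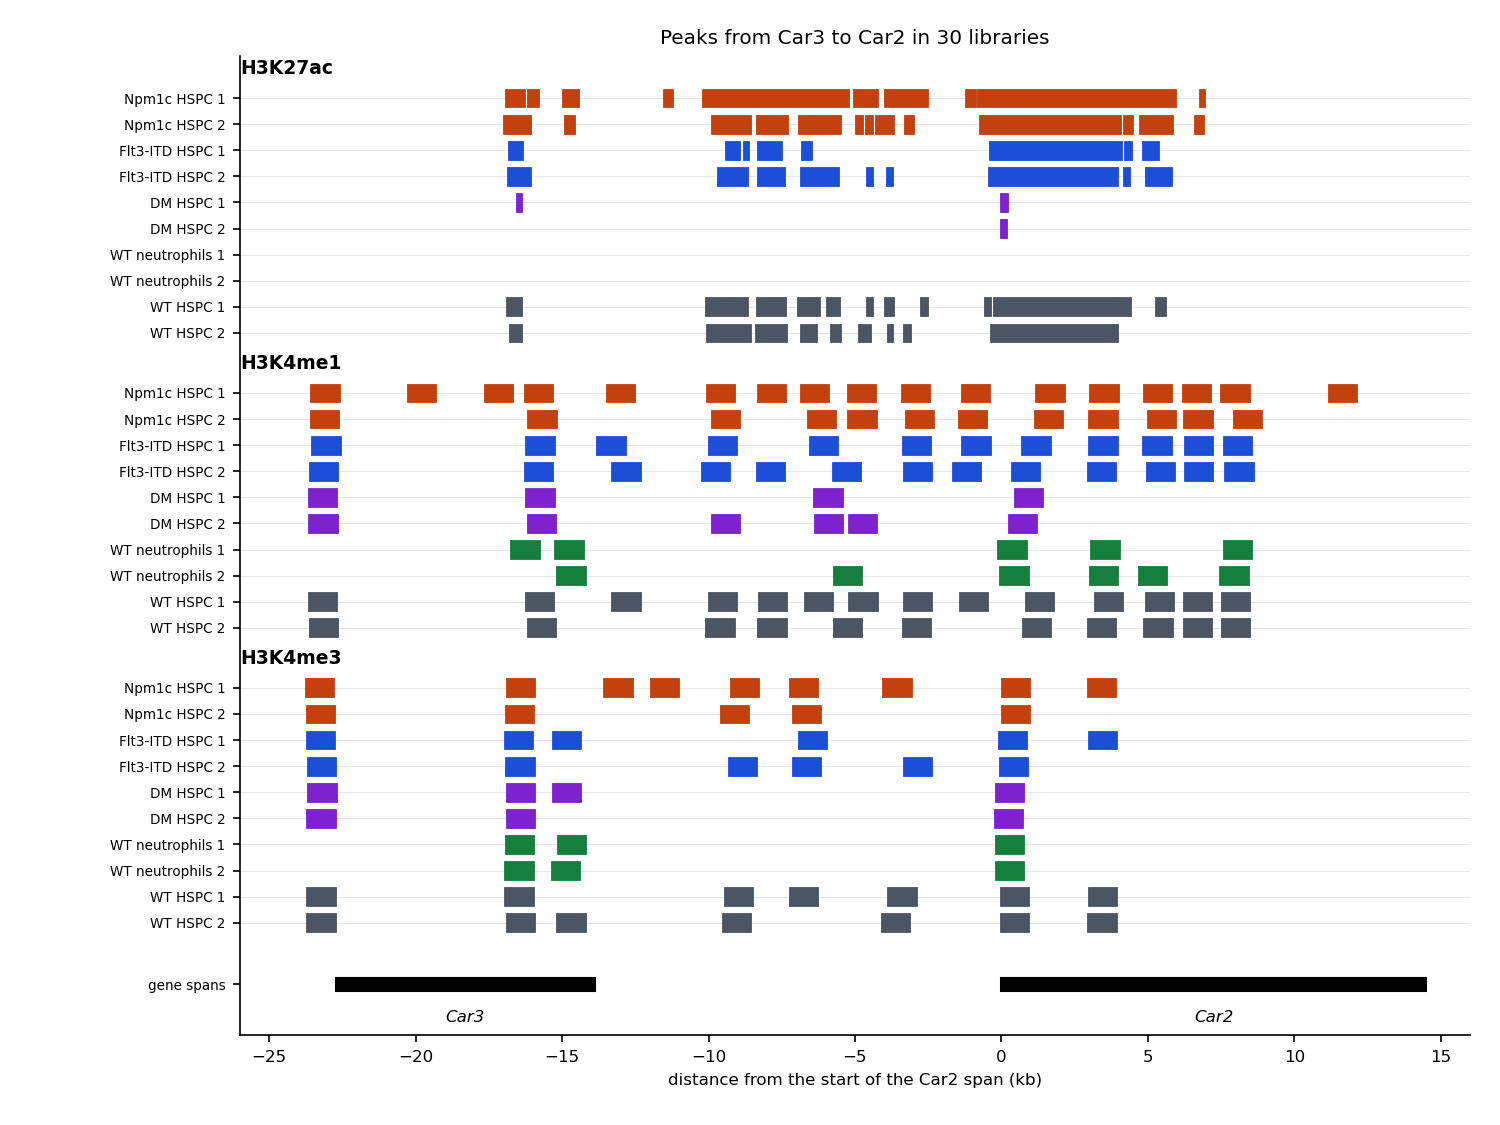
Peaks of each library from Car3 to Car2, with the distance from the start of the Car2 span in kb on the horizontal axis. DM HSPC have short H3K27ac peaks and 1 H3K4me3 peak at the Car2 start, and neutrophils have H3K4me1 and H3K4me3 peaks in Car2 with no H3K27ac peak.

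Car1 had 4.69 and 3.93 kb of H3K27ac in Npm1c HSPC, 0.888 and 1.31 kb in Flt3-ITD HSPC, 0 and 0 kb in DM HSPC and in neutrophils, and 2.25 and 2.21 kb in WT HSPC. The order Npm1c, WT, Flt3-ITD held without overlap, and DM HSPC and neutrophils had no H3K27ac peak in the window. The mean in Npm1c HSPC was 193% of the WT HSPC mean, and that in Flt3-ITD HSPC 49.3%. All of this coverage sat at the start of the gene. A region from 14804650 to 14808424 held peaks in all 6 Npm1c, Flt3-ITD and WT HSPC libraries. A second one just upstream of the start, at 14808586-14809558, held peaks in both Npm1c libraries and in WT HSPC replicate 2.

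Within the Car3 span H3K27ac was sparse: 1.70 and 1.31 kb in Npm1c HSPC, 0.497 and 0.799 kb in Flt3-ITD HSPC, 0.2 and 0 kb in DM HSPC, 0 and 0 kb in neutrophils, and 0.552 and 0.47 kb in WT HSPC. No library had an H3K27ac peak within 1 kb of the Car3 start. The wider Car3 window held 8.06 and 6.19 kb in Npm1c HSPC, 2.42 and 4.45 kb in Flt3-ITD HSPC, and 4.70 and 4.54 kb in WT HSPC, most of it in the sequence before Car2 described above.

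Car13 had 1 short H3K27ac peak at its start in every HSPC library: 0.473 and 0.483 kb in Npm1c, 0.427 and 0.479 kb in Flt3-ITD, 0.35 and 0.263 kb in DM, and 0.327 and 0.365 kb in WT HSPC. Neutrophils had none. The DM values at Car13 overlapped with those of WT HSPC, and at the other 3 genes both DM libraries were lower. Per length, the WT HSPC mean was 27.04% of the Car2 window, 16.02% of the Car3 window, 3.59% of the Car1 window and 0.838% of the Car13 window.

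**Figure D3:**
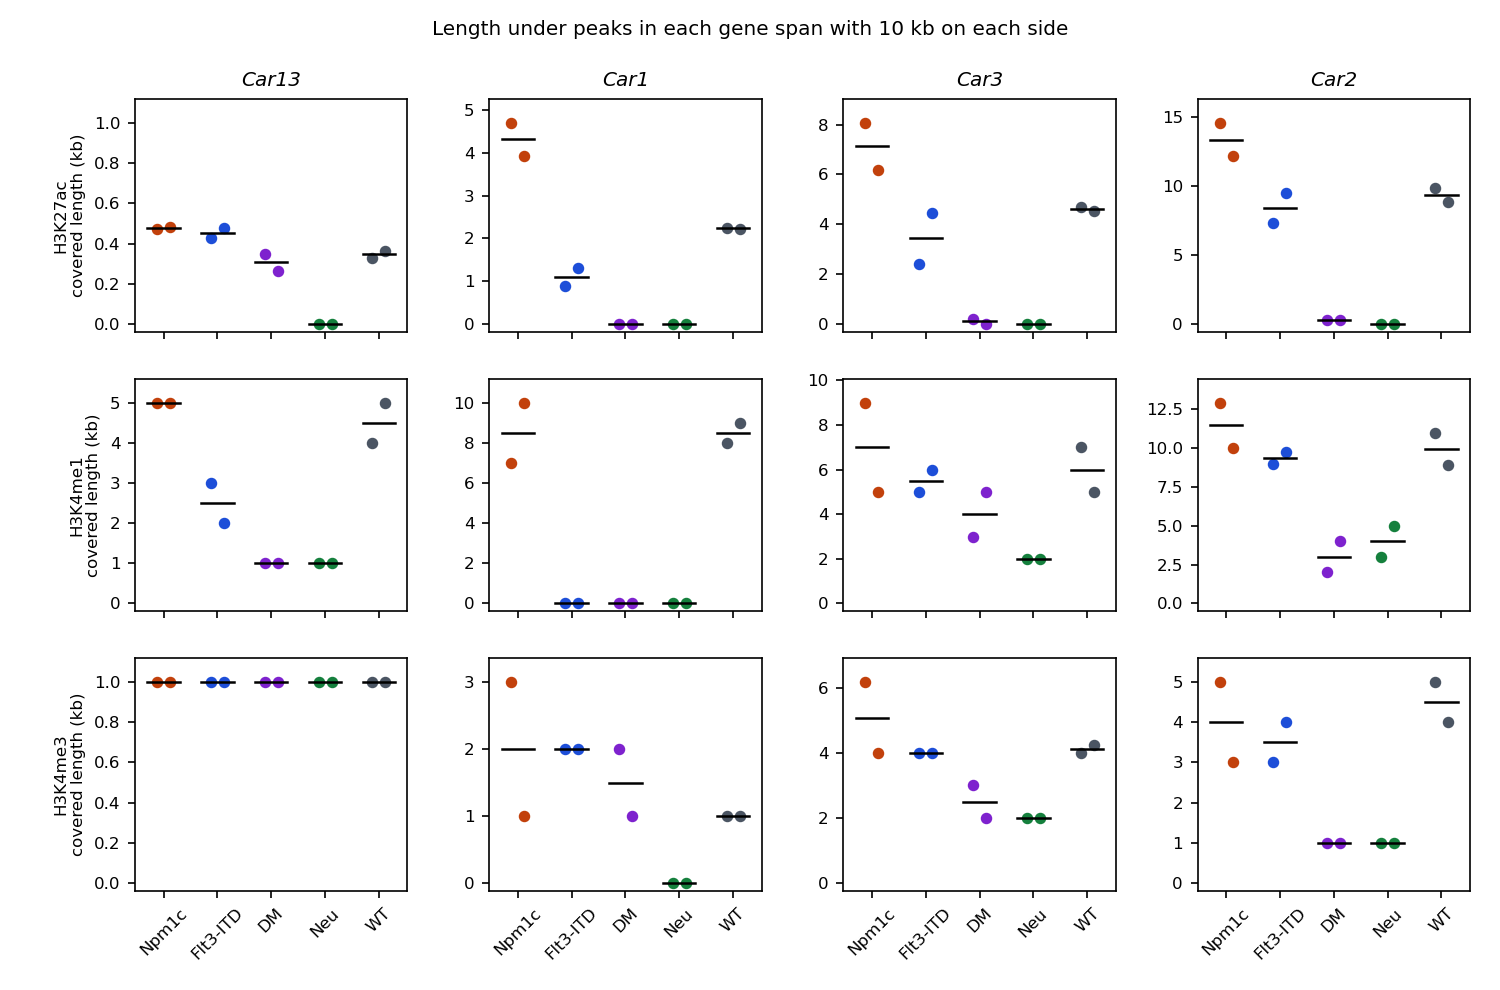
Covered length in kb in the window of each gene (columns) for each mark (rows), 1 point per library and a bar at the mean of 2 libraries, with Npm1c, Flt3-ITD and DM HSPC and neutrophils (Neu) left of WT HSPC. H3K27ac at Car1, Car3 and Car2 is highest in Npm1c and at or near 0 in DM and neutrophils, H3K4me1 at Car1 is 0 in Flt3-ITD, DM and neutrophils, and H3K4me3 at Car13 is 1 kb in all 10 libraries.

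In Npm1c HSPC all 4 windows were higher in both libraries than in both WT HSPC libraries, as were 78.3% of the 13633 genes tested for H3K27ac. Flt3-ITD HSPC had 2 windows lower (Car1 and Car3) and 1 higher (Car13), beside 10.7% of genes lower and 45.7% higher. For DM HSPC 3 windows were lower, beside 23.4% of genes, and for neutrophils all 4, beside 52.0%. The median difference over all genes was 0.54 kb in Npm1c, 0.159 kb in Flt3-ITD, 0.038 kb in DM and -0.143 kb in neutrophils. At Car1 the group means differed from WT HSPC by 2.08 kb in Npm1c, -1.13 kb in Flt3-ITD and -2.23 kb in DM. At Car2 they differed by 4.01 kb, -0.952 kb and -9.06 kb. A window covered in both WT HSPC libraries and in neither DM library, as at Car1, was seen for 2.65% of genes, and likewise for 7.27% in neutrophils. These H3K27ac contrasts belong to the choice of the genes, and nothing is read from their counts.

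Marker genes of the cell types are given beside these values. The marker lists and the gene lists further below were chosen with earlier results of these data known, so their counts are a description. The H3K27ac length summed over 10 erythroid markers was 32.3 and 21.7 kb in Npm1c HSPC, 12.3 and 16.9 kb in Flt3-ITD HSPC, 6.38 and 4.34 kb in DM HSPC, 4.16 and 3.67 kb in neutrophils, and 18.3 and 17.2 kb in WT HSPC. Of the 9 with enough coverage, 9 were lower in both DM libraries, beside 23.4% of all genes, and 9 in both neutrophil libraries, beside 52.0%. Alas2 was among those at 0 in DM HSPC. Hba-a1, the marker not counted, was at 0 there too, as in Npm1c HSPC, Flt3-ITD HSPC and neutrophils. The 9 neutrophil markers summed to 0.718 and 0 kb in DM HSPC, 25.4 and 27.5 kb in neutrophils, and 0.453 and 0.499 kb in WT HSPC. The 8 stem and progenitor markers summed to 33.0 and 39.9 kb in Npm1c HSPC, 17.3 and 23.5 kb in Flt3-ITD HSPC, 21.6 and 13.3 kb in DM HSPC, 5.01 and 5.51 kb in neutrophils, and 9.46 and 9.78 kb in WT HSPC. In DM HSPC 5 of these 8 were lower and 3 higher in both libraries, beside 23.4% and 29.9% of all genes. Their median difference was -0.209 kb, and Gata2 was at 0. The higher DM sum came mainly from Flt3, with 11.8 and 6.33 kb in DM HSPC against 0.942 and 0.718 kb in WT HSPC, and from Meis1. The 4 megakaryocyte markers summed to 8.05 and 5.85 kb in Npm1c HSPC, 0.665 and 2.87 kb in Flt3-ITD HSPC, 0.317 and 0.264 kb in DM HSPC, 0.388 and 0.388 kb in neutrophils, and 2.67 and 3.92 kb in WT HSPC. The 3 monocyte and macrophage markers summed to 5.37 and 6.87 kb in Npm1c HSPC, 6.38 and 5.93 kb in Flt3-ITD HSPC, 10.8 and 7.26 kb in DM HSPC, 3.72 and 3.59 kb in neutrophils, and 4.45 and 3.71 kb in WT HSPC. In H3K27ac DM HSPC thus lay below WT HSPC in the erythroid and megakaryocyte sums and above it in the stem and monocyte sums. The lower megakaryocyte sum rests on 2 genes, as Pf4 and Ppbp were at 0 in both groups. Of the 3 monocyte and macrophage markers 2 were higher in both DM libraries, and Ly6c2 was at 0 in both groups. In H3K4me1 the stem sum went the other way, with 85.3 and 100.7 kb in DM HSPC against 121.8 and 125.0 kb in WT HSPC. The H3K4me1 monocyte sums of these groups overlapped, and the erythroid and megakaryocyte sums were lower in DM HSPC for this mark too. In such bulk samples fewer cells of a type and less of a mark per cell cannot be told apart, and the part of cell makeup in the values at the cluster was not tested.

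H3K4me1 was spread more widely. The cluster held 32 and 30 peaks in Npm1c HSPC, 16 and 17 in Flt3-ITD HSPC, 6 and 7 in DM HSPC, 6 and 7 in neutrophils, and 28 and 28 in WT HSPC. DM HSPC and neutrophils thus had equal counts, and Flt3-ITD HSPC lay between them and WT HSPC. Merging gave 36 regions, of which 24 had a peak in both WT HSPC libraries. Both libraries held a peak at 22 of these 24 in Npm1c HSPC, at 13 in Flt3-ITD HSPC, at 5 in DM HSPC and at 5 in neutrophils. Neither library did at 1 in Npm1c, 8 in Flt3-ITD, 17 in DM and 17 in neutrophils. The share of WT HSPC regions kept over the whole genome was not counted, so nothing is read from these counts. Total H3K4me1 coverage was 0.900 times that of WT HSPC in Npm1c, 0.964 in Flt3-ITD, 0.843 in DM and 0.869 in neutrophils.

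At Car1 no H3K4me1 peak was found in 3 of the 5 groups. Its window held 7 and 10 kb in Npm1c HSPC, 0 and 0 kb in Flt3-ITD HSPC, in DM HSPC and in neutrophils, and 8 and 9 kb in WT HSPC. The peaks of WT and Npm1c HSPC lay inside the gene from 14785000 to 14804076, towards its start, and just upstream of the start. Flt3-ITD HSPC had H3K27ac at the Car1 start and no H3K4me1 peak in the window. A window covered in both WT HSPC libraries and empty in both others was seen in Flt3-ITD for 0.605% of the genes covered in both WT HSPC libraries, in DM for 2.01% and in neutrophils for 4.26%.

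At Car2 the H3K4me1 windows held 12.9 and 10.0 kb in Npm1c HSPC, 8.98 and 9.74 kb in Flt3-ITD HSPC, 2 and 4 kb in DM HSPC, 3 and 5 kb in neutrophils, and 11.0 and 8.89 kb in WT HSPC. DM HSPC and neutrophils lay below WT HSPC, and both other groups overlapped with it. DM HSPC and neutrophils both had the peak at the Car2 start, and some of their other peaks lay in different places. Inside the Car2 span neutrophils had 2.86 and 3.93 kb and DM HSPC 1 and 1 kb, against 5 and 5 kb in WT HSPC. Before Car2 neutrophils had 0.139 and 1.07 kb and DM HSPC 1 and 3 kb, against 7 and 4 kb in WT HSPC. Regions centred 3.53 and 8.18 kb into Car2 held H3K4me1 in both neutrophil libraries and in neither DM library. The region at 14879391-14882045, in the intergenic sequence, held it in both DM libraries and in 1 neutrophil library.

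Car13 held 5 and 5 kb of H3K4me1 in Npm1c HSPC, 3 and 2 kb in Flt3-ITD HSPC, 1 and 1 kb in DM HSPC, 1 and 1 kb in neutrophils, and 4 and 5 kb in WT HSPC. The 1 kb of DM HSPC and of neutrophils was the peak at the start, and the other groups had peaks inside the gene too. Car3 held 9 and 5 kb in Npm1c HSPC, 5 and 6 kb in Flt3-ITD HSPC, 3 and 5 kb in DM HSPC, 2 and 2 kb in neutrophils, and 7 and 5 kb in WT HSPC, where neutrophils alone did not overlap with WT HSPC. Over the 4 genes H3K4me1 was lower in 2 windows in Flt3-ITD HSPC, 3 in DM HSPC and 4 in neutrophils, beside 19.4%, 41.6% and 39.9% of the 17377 genes tested. All 4 overlapped with WT HSPC in Npm1c HSPC, where 3.67% of genes were higher and 18.1% lower.

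**Figure D4:**
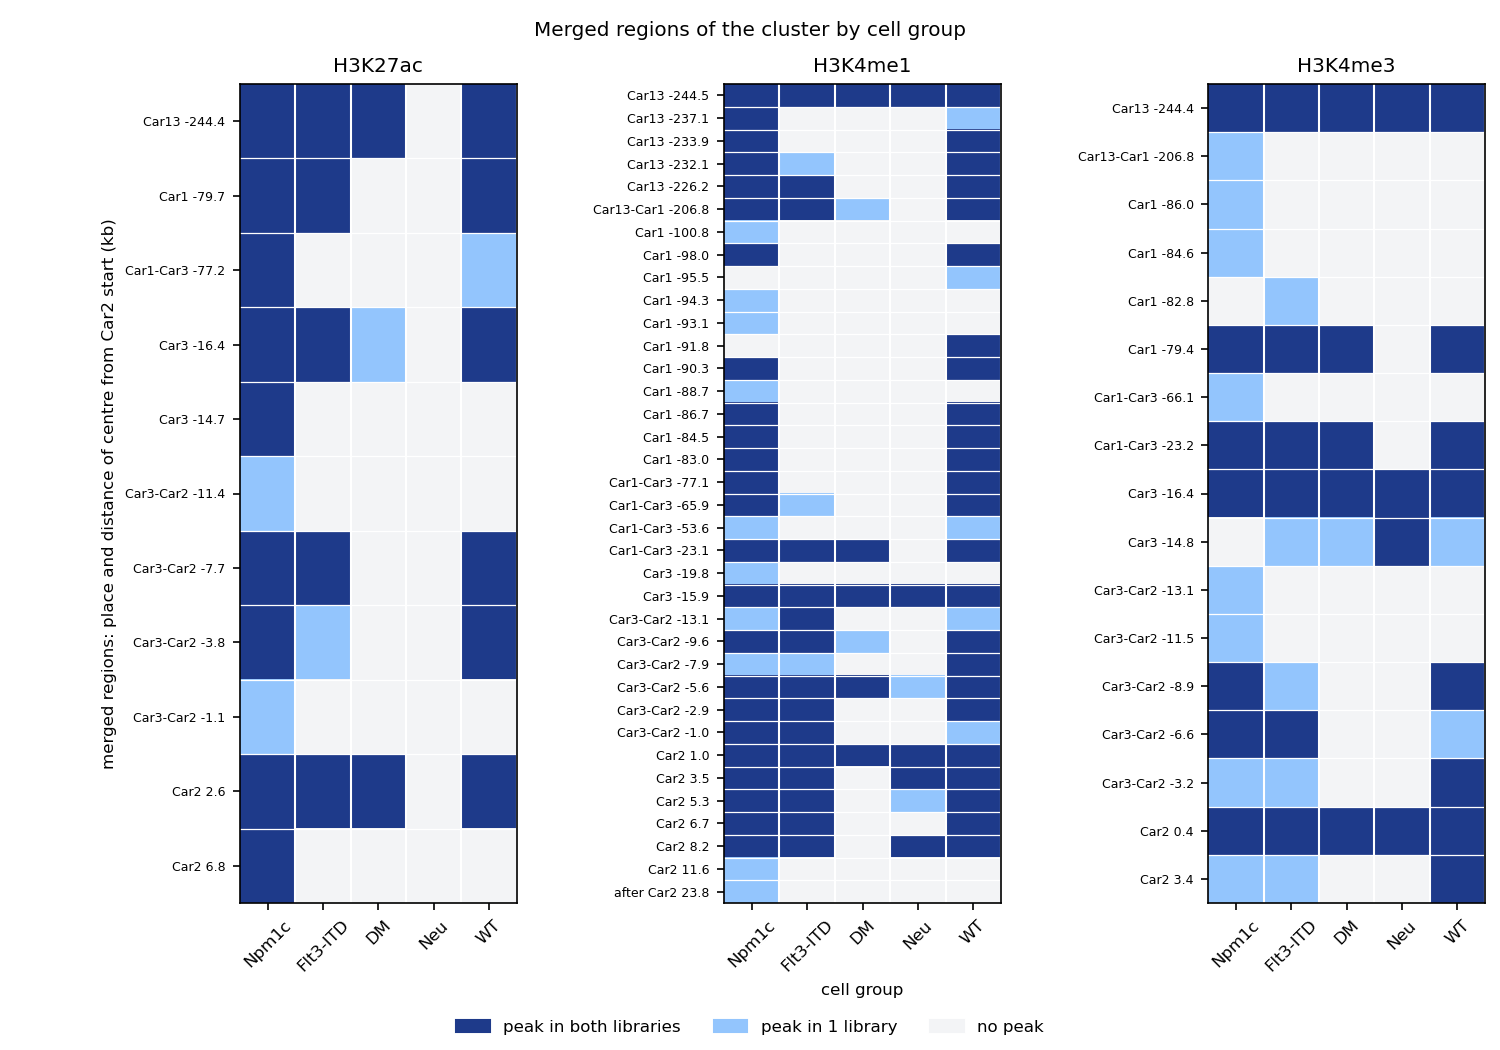
Merged regions of each mark (rows, named by place and by the distance of the centre from the Car2 start in kb) against cell group (columns, Neu for neutrophils), coloured by whether both libraries, 1 library or none holds a peak. Of the H3K4me1 regions in both WT HSPC libraries, 17 of 24 are empty in both DM libraries and 17 of 24 in both neutrophil libraries. The share of such regions over the whole genome was not counted. Rows at the starts of Car13 and Car2 are filled in every group for H3K4me1 and H3K4me3.

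H3K4me3 peaks were found at the start of each gene in every HSPC library, as were H3K4me1 peaks at the starts of Car13, Car3 and Car2. H3K4me3 peaks at the Car13 start (14641329-14642392), inside Car3 (14869289-14870357) and at the Car2 start (14886016-14887250) were present in all 10 libraries. Peaks at the Car1 start (14805452-14808285) and at the Car3 start (14862495-14863572) were present in all 8 HSPC libraries, DM included, and in no neutrophil library. The Car1 start in DM HSPC therefore carried H3K4me3 in both libraries with no H3K27ac or H3K4me1 peak in the window. Likewise the Car2 start carried H3K4me3 and H3K4me1 in both neutrophil libraries with no H3K27ac peak.

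The Car2 window held 5 and 3 kb of H3K4me3 in Npm1c HSPC, 3 and 4 kb in Flt3-ITD HSPC, 1 and 1 kb in DM HSPC, 1 and 1 kb in neutrophils, and 5 and 4 kb in WT HSPC. DM HSPC and neutrophils had the start peak and no other, and both WT HSPC libraries had further peaks before and inside the gene. The means were 1 ± 0 kb in DM HSPC, 1 ± 0 kb in neutrophils and 4.5 ± 0.707 kb in WT HSPC (SD, n = 2 each). On the log2(covered bp + 500) scale Car2 fell by 1.73 (SE 0.244) in DM HSPC (limma, Benjamini-Hochberg adjusted p = 0.0107) and by 1.73 (SE 0.244) in neutrophils (adjusted p = 0.00586). Neither call held with shorter windows: the DM difference was -1.22 with 5 kb on each side (adjusted p = 0.137) and -0.95 for the span alone (adjusted p = 0.144). The DM call also ended without DM replicate 1 (adjusted p = 0.0528) or without DM replicate 2 (adjusted p = 0.0560).

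The other members did not pass this test in any group. Car1 had 3 and 1 kb of H3K4me3 in Npm1c HSPC, 2 and 2 kb in Flt3-ITD HSPC, 2 and 1 kb in DM HSPC, 0 and 0 kb in neutrophils, and 1 and 1 kb in WT HSPC. In neutrophils the limma adjusted p was 0.0683, and a window covered in both WT HSPC libraries and empty in both neutrophil libraries was seen for 5.41% of genes. In Npm1c HSPC, Flt3-ITD HSPC and DM HSPC the log2 differences at Car1 were 0.61, 0.74 and 0.37 (limma adjusted p = 0.950, 0.711 and 0.849). Car3 had 6.17 and 4 kb in Npm1c HSPC, 4 and 4 kb in Flt3-ITD HSPC, 3 and 2 kb in DM HSPC, 2 and 2 kb in neutrophils, and 4.01 and 4.24 kb in WT HSPC. Its log2 difference was -0.64 (SE 0.229) in DM HSPC (limma adjusted p = 0.191) and -0.89 in neutrophils (adjusted p = 0.0565). Car13 had 1 kb in every library.

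Over the 16 tests of 4 genes in 4 comparisons, 2 passed. Among all 16530 genes tested for H3K4me3, limma called 1.52% in Npm1c HSPC, 3.0% in Flt3-ITD HSPC, 8.71% in DM HSPC and 17.7% in neutrophils. The first 2 shares rest on 252 and 496 genes, and leaving out any 1 library of either group compared raised these counts to between 506 and 1119 in Npm1c HSPC and between 772 and 1078 in Flt3-ITD HSPC. The share called lower was 3.87% in DM HSPC and 10.6% in neutrophils, beside 1 of 4 members in each. Npm1c replicate 1 stood apart within its group, with 15 H3K4me3 peaks in the cluster against 7 in replicate 2. The regions that only it held, such as those inside Car1 and 11 to 13 kb before Car2, are given here as seen in 1 library. Without it the H3K4me3 difference of the cluster between Npm1c HSPC and WT HSPC was -2 kb, and with it 2 kb.

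The marks overlapped at the base level in different proportions. In Npm1c HSPC 17.3 kb of the cluster was under H3K27ac in both libraries, of which 6.89 kb was under H3K4me1 in both and 4.09 kb under H3K4me3 in both. In WT HSPC 10.7 kb was under H3K27ac, with 3.89 kb under H3K4me1 and 4.40 kb under H3K4me3. Of the Npm1c bases 10.4 kb were acetylated in both WT HSPC libraries too. The 0.516 kb that both DM libraries shared for H3K27ac lay entirely within bases acetylated in both WT HSPC libraries and under H3K4me3 in both DM libraries. Npm1c HSPC had 2 H3K27ac regions in both libraries that neither WT HSPC library had, inside Car3 (14871248-14871861) and inside Car2 (14892850-14893231). No such region was found in Flt3-ITD HSPC, DM HSPC or neutrophils. Total H3K27ac coverage in Npm1c HSPC was 1.55 times that of WT HSPC. Such regions were not counted over the whole genome, so nothing is read from their number here. For H3K4me1 and H3K4me3, regions in both libraries of a group and in neither WT HSPC library numbered 0 in all 4 groups.

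The window edge left out a nearby element. Between 0.998 and 1.53 kb past the end of the cluster, H3K27ac and H3K4me3 peaks began in all 6 Npm1c, Flt3-ITD and WT HSPC libraries and in no DM or neutrophil library, for example H3K27ac at 14912161-14912504 in Flt3-ITD replicate 2. H3K4me1 was there in the same 6 libraries, in DM replicate 1 and in neutrophil replicate 1. Just inside the edge, the only peak in the last 10 kb was 1 of H3K4me1 in Npm1c replicate 1 (14909618-14910617). On the other side Rbis, the next protein-coding gene, lies 30.5 kb before the Car13 span. Its H3K27ac was 1.16 and 1.42 kb in Npm1c HSPC, 1.10 and 1.204 kb in Flt3-ITD HSPC, 1.116 and 0.887 kb in DM HSPC, 0.727 and 0.74 kb in neutrophils, and 1.14 and 1.03 kb in WT HSPC. The DM libraries of Rbis thus overlapped with those of WT HSPC. Gm9733, 394 kb past the end of the Car2 span, had 0 and 0 kb in Npm1c HSPC, 0.294 and 0 kb in Flt3-ITD HSPC, 0.962 and 0.371 kb in DM HSPC, 1.77 and 1.79 kb in neutrophils, and 0 and 0 kb in WT HSPC.

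The 12 carbonic anhydrase genes elsewhere in the genome were compared next. For H3K27ac 7 of them were tested, and in DM HSPC 2 were higher in both libraries, 1 was lower and 4 overlapped with WT HSPC, with a median difference of 0.269 kb, beside 29.9% of all genes higher and 23.4% lower. Car11, which encodes a family member without enzyme activity, held 2.86 and 3.06 kb in Npm1c HSPC, 2.54 and 2.46 kb in Flt3-ITD HSPC, 4.16 and 2.94 kb in DM HSPC, 0.35 and 0.414 kb in neutrophils, and 1.98 and 1.97 kb in WT HSPC. Car14, a membrane-bound enzyme, held 2.104 and 1.04 kb in DM HSPC, against 0.669 and 0.867 kb in WT HSPC. Car7, a cytosolic enzyme, held 0.786 and 0.539 kb in DM HSPC, against 1.27 and 1.33 kb in WT HSPC. For H3K4me3, 11 of the 12 were tested, and Car6, a secreted enzyme, rose by 0.88 on the log2 scale (SE 0.0625) in DM HSPC (limma adjusted p = 0.000395), where 4.84% of all genes were called higher. In neutrophils Car6 rose by 0.88 as well (limma adjusted p = 0.000224), Car5b also rose and Car14 fell. Of all genes 17.7% were called there in either direction. The H3K4me3 window of Car6 held 1 and 1 kb in DM HSPC, against 0.362 and 0.273 kb in WT HSPC. Peaks of this mark were 1000 bp wide, so the WT HSPC values came from a peak cut by the window edge. Whether the mark or the peak position differed was not tested.

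Genes that move carbon dioxide and bicarbonate in red cells were described in the same way. Of 10 genes 7 were tested for H3K27ac, and in DM HSPC 5 were lower and 2 higher in both libraries, with a median of -0.469 kb, beside 23.4% of all genes lower and 29.9% higher. Aqp1, the red cell water channel, held 6.73 and 4.69 kb in Npm1c HSPC, 2.97 and 3.98 kb in Flt3-ITD HSPC, 0 and 0 kb in DM HSPC and in neutrophils, and 5.15 and 5.53 kb in WT HSPC. Rhag, of the rhesus protein complex, held 4.62 and 3.31 kb in Npm1c HSPC, 2.321 and 2.125 kb in Flt3-ITD HSPC, 0 and 0 kb in DM HSPC and in neutrophils, and 2.317 and 2.115 kb in WT HSPC. Slc4a1, the chloride and bicarbonate exchanger of the red cell membrane, held 0 and 0 kb in DM HSPC, against 1.82 and 1.51 kb in WT HSPC. For H3K4me3 all 10 were tested: Rhag fell by 1.73 on the log2 scale (SE 0.358) in DM HSPC (limma adjusted p = 0.0460), with 1 and 1 kb in DM HSPC against 4 and 5 kb in WT HSPC. Slc4a7, a sodium and bicarbonate cotransporter, rose by 0.49 (SE 0.00154) in DM HSPC (limma adjusted p = 3.56e-11), with 3 and 3 kb in DM HSPC against 2 and 2 kb in WT HSPC. In Flt3-ITD HSPC Slc4a7 rose by 0.49 as well (limma adjusted p = 7.4e-11), so the rise was not particular to DM HSPC. Coverage moved in steps of about 1 kb and replicates were equal, so those p-values do not measure biological spread. In neutrophils Slc4a1, Rhag, Aqp1 and Hbb-bt fell, and all 4 had no H3K4me3 peak there, beside 10.6% of all genes called lower and 5.41% empty in both neutrophil libraries. Windows of neighbouring globin genes hold the same peaks.

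The list of erythroid regulators held 8 genes, all with enough coverage for H3K27ac. It too was chosen with earlier results of these data known, so nothing is read from its counts. All 8 were lower in both DM libraries, with a median of -3.43 kb, and all 8 in both neutrophil libraries, with a median of -3.58 kb. In Npm1c HSPC 6 were higher in both libraries, with a median of 2.41 kb, and in Flt3-ITD HSPC 3 were lower in both. Among all genes 23.4% were lower in DM HSPC, 52.0% in neutrophils and 10.7% in Flt3-ITD HSPC. In Npm1c HSPC 78.3% were higher, so the Npm1c count is near the share of all genes. Zfpm1, a cofactor of GATA1, held 21.4 and 10.7 kb in Npm1c HSPC, 3.51 and 7.23 kb in Flt3-ITD HSPC, 1.16 and 0.509 kb in DM HSPC, 0.294 and 0.218 kb in neutrophils, and 12.6 and 13.4 kb in WT HSPC. Gfi1b, a repressor needed for red cells and platelets, held 10.9 and 6.41 kb in Npm1c HSPC, 1.75 and 4.17 kb in Flt3-ITD HSPC, 0 and 0 kb in DM HSPC and in neutrophils, and 7.59 and 8.19 kb in WT HSPC. Tal1, a stem cell and erythroid factor, held 1.73 and 1.15 kb in DM HSPC, against 6.96 and 6.75 kb in WT HSPC. For H3K4me3, 0 of the 8 passed limma in DM HSPC and 2 fell in neutrophils, Zfpm1 and Gata1, beside 8.71% of all genes called in DM HSPC and 10.6% called lower in neutrophils.

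The genes whose H3K27ac profile over the 10 libraries was most like that of Car1 included Sox6, Pnmt, Garem1 and Tnik, 4 of the nearest 5. Likeness was the mean absolute difference of log2(covered bp + 500), each gene centred on its own mean, and was 0.129 for Sox6, 0.182 for Pnmt, 0.195 for Garem1 and 0.197 for Tnik. For Car2 the nearest 5 were Aqp1, Hs6st1, Gfi1b, Paqr9 and Zfpm1, at 0.367 for Aqp1 and 0.46 for Zfpm1. All 5 nearest genes of Car2 lay farther from it than the 5 of Car1 did from Car1. For H3K4me1, Ndst3 was nearest to Car1, at 0.131, with 5 and 8 kb in Npm1c HSPC, 0 and 0 kb in Flt3-ITD HSPC, in DM HSPC and in neutrophils, and 8 and 11 kb in WT HSPC. Alas2, the first enzyme of haem synthesis in red cells, followed at 0.546 and Pdgfd at 0.633. Sftpb, Ccndbp1 and Adgrg7 were nearest to Car2, at 0.159, 0.197 and 0.197. All 10 libraries share their depth and list length between genes, and these likenesses are a description.

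**Figure D5:**
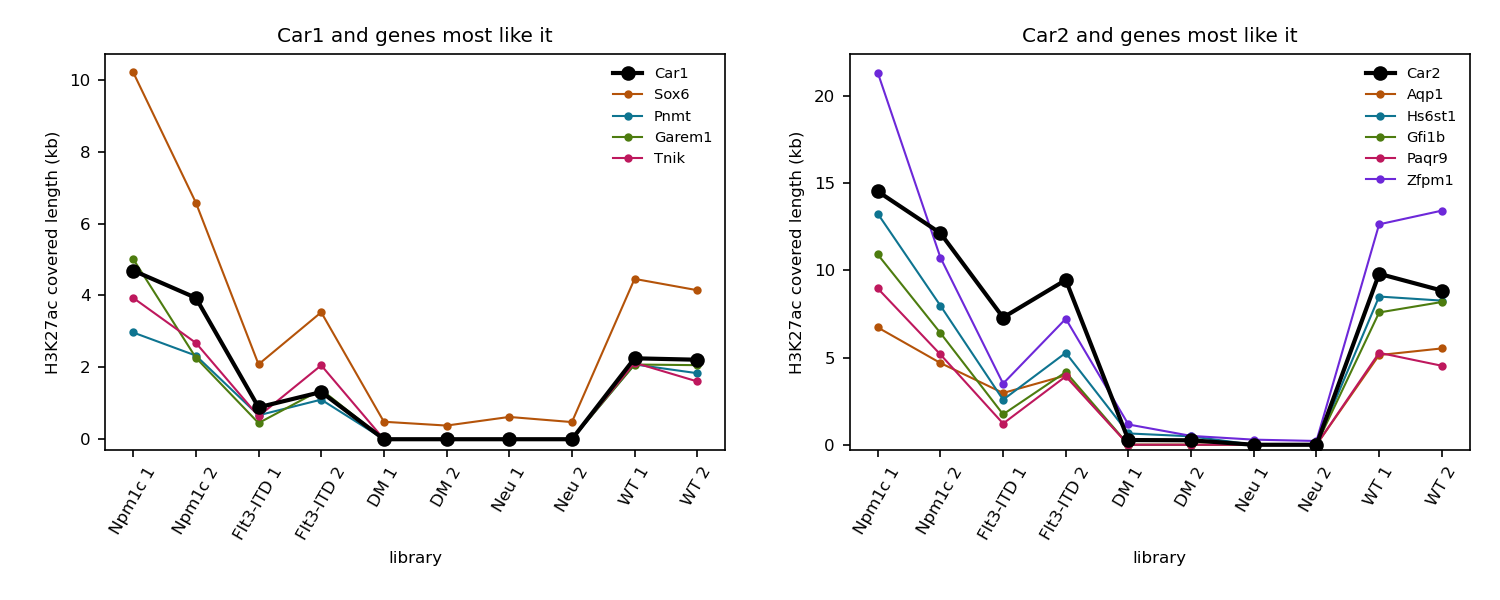
H3K27ac covered length in kb in each of the 10 libraries for Car1 (left) and Car2 (right), in black, and for 4 of the 5 genes most like Car1 and the 5 most like Car2, in colour; lines join the points of a gene and carry no order. Pnmt, Garem1 and Tnik are at 0 in the DM and neutrophil libraries as Car1 is, and Sox6 has between 0.38 and 0.62 kb there.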

How the data were processed

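ChIP-seq peak lists of 30 libraries were used, 2 for each of 5 groups and 3 marks. The submitters' processing notes name Bowtie2 2.1.0, mm10, Picard, HOMER and MACS2, and the file names assign HOMER to both H3K4 marks and MACS2 to H3K27ac. Thresholds and the remaining versions were not stated there. The deposited files hold peak positions and no other value, so depth is unknown and no counting interval can be given.

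Peaks were merged within each library and their length was summed over each gene span with 10 kb on each side (RefSeq genes on GRCm38.p6, the assembly of mm10). Regions merge the peaks of the 10 libraries of a mark (at least 1 bp shared). H3K4me3 was tested with limma 3.58.1 in R 4.3.3 (trend, two-sided, Benjamini-Hochberg over all genes, threshold 0.05) on log2(covered bp + 500), over 16530 genes covered in at least 2 of 10 libraries, with all 10 libraries sharing 1 spread. All 4 members were tested. The procedure was first tested on simulated data with continuous noise of 1 common spread. Such data lack the 1 kb steps of the H3K4me3 peaks, so that run does not show how the test behaves with them. HOMER peaks gave many genes no spread between replicates, so the small p-values there reflect whole peaks.

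Named genes were the 4 members, the 3 genes of each list with the largest H3K27ac difference between DM and WT HSPC, the genes most like Car1 and Car2, the neighbours, and H3K4me3 calls within the lists; some genes under this rule are not reported here. The members and lists were chosen with earlier results of these data known. Alternatives covered window, pseudocount, filter, scaling, list length, replicate block and left-out replicates.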

Additional observations from a re-analysis of the deposited data

How the results depend on the processing

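Dividing by each library's total covered length moved the cluster differences from WT HSPC. For H3K27ac they became 0.369 kb in Npm1c (7.40 kb before), -3.92 kb in Flt3-ITD (-1.95), -14.0 kb in DM (-11.9) and -14.7 kb in neutrophils (-12.5). For H3K4me1 they became 6.29 kb in Npm1c (3 before), -9.92 kb in Flt3-ITD (-11.5), -18.6 kb in DM and -18.8 kb in neutrophils (-21.5 each). For H3K4me3 they became -0.981 kb in Flt3-ITD (0 before) and -5.24 kb in neutrophils (-5), and without the 10 kb flanks -0.0025 and -5.01 kb. Leaving out 1 replicate at a time gave, for H3K27ac, 5.34 to 9.47 kb in Npm1c, -3.41 to -0.48 kb in Flt3-ITD, -12.4 to -11.3 kb in DM and -13.1 to -12.0 kb in neutrophils. For H3K4me1 the ranges were 2 to 4, -12 to -11, -22 to -21 and -22 to -21 kb, in the same order of groups. For H3K4me3 they were -2 to 6 kb in Npm1c, where the sign turned without Npm1c replicate 1, 0 in Flt3-ITD, -4 to -2 kb in DM and -5 kb in neutrophils.

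Counts of genes called for H3K4me3 by limma were 252, 496, 1440 and 2928 in Npm1c, Flt3-ITD, DM and neutrophils, and 506 to 1119, 772 to 1078, 1407 to 1849 and 2195 to 2953 with 1 replicate left out. With a replicate block they were 239, 433, 1258 and 2652. Correlations of same-numbered libraries between groups lay between -0.226 and 0.108 over 10 pairs, with 1 above 0.1, so the numbers were not taken as pairs.

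At Car2 the neutrophil difference in H3K4me3 was -1.22 with 5 kb flanks (limma adjusted p = 0.0878) and -0.93 for the span alone (adjusted p = 0.0950), and the DM call ended as given above. Differences that turned sign had passed no test: at Car3 for the span alone, -0.37 in Npm1c, 0.0019 in Flt3-ITD, 0.0100 in DM and 0.37 in neutrophils; and in Npm1c at Car3 without Npm1c replicate 1 (-0.038, range -0.038 to 0.53 with 1 replicate left out) and at Car2 without Npm1c replicate 2 (0.14, range -0.51 to 0.14). The cause was not tested. With 2 libraries a group and unknown depth, a missing peak is not shown to be a missing mark.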
